A study of Homo sapiens with 6 samples.

Results

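The genes examined here are those of MHC class I and of peptide loading in DND41, a cell line from human T-cell acute lymphoblastic leukaemia. The rule listed 9 symbols and kept those with a mean of at least 10 normalized counts over the 6 libraries. That left 8 genes of the 13465 in the table that met the same minimum, out of 17202 in all. HLA-C was the member that stayed below it and is described by its values alone. The tested cells had received MB1-47, which the series title calls a mitochondrial uncoupling drug, for 24 h, with a dose that the labels write as 4 mM, and the control cells had received the solvent DMSO for 24 h. Both groups were the same line in RPMI with serum, plated in triplicates, with 3 libraries each, and the labels do not say how far the triplicates were separate cultures. The p-values therefore rest on how far these 3 libraries per group differed, and that spread may be technical.

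MHC class I molecules show peptides from inside the cell to CD8 T cells and to natural killer cells. A heavy chain, encoded by HLA-B, HLA-C, HLA-E and their relatives, pairs with beta-2 microglobulin, the light chain encoded by B2M. TAP1 and TAP2 form the transporter that carries peptides into the endoplasmic reticulum, TAPBP encodes tapasin, which bridges the transporter and the heavy chain while a peptide is chosen, and ERAP1 trims peptides there. NLRC5 is the transactivator of class I genes and acts together with RFX, CREB-family and NF-Y proteins at a conserved promoter module. Cortical thymocytes are known for lower class I levels than mature T cells.

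All heavy chain genes of the rule and the transporter and tapasin genes lie in the MHC on chromosome 6 in GENCODE 29 on GRCh38, whereas B2M lies on chromosome 15 (44711487 to 44718877), ERAP1 on chromosome 5 (96760810 to 96808100) and NLRC5 on chromosome 16 (56989485 to 57083531). HLA-E spans 30489467 to 30494205 on the plus strand, and TAP1 spans 32845209 to 32853978 on the minus strand. PSMB9, an immunoproteasome gene, spans 32844136 to 32859585 on the plus strand and so overlaps TAP1. HLA-B (31269491 to 31357188) and HLA-C (31268749 to 31272130) also overlap, both on the minus strand, where strand cannot tell their reads apart. The libraries were strand-specific, but no source used here says whether reads were assigned by strand, so reads of overlapping genes may be shared.

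The promoters of 7 of the 9 members had an entry in the RefSeq table (GRCh38.p14), and 4 are shown as examples. They carry elements at which the factors described further on are known to act. The promoters of TAP2, TAPBP and ERAP1, which are not shown, also held matches to some of these elements. Each stretch runs from base 180 to base 41 before the RefSeq start, 5′ to 3′ on the strand of the gene. Capitals mark matches on either strand to CCAAT (the box bound by NF-Y), TGACG (a CRE half-site, bound by CREB-family proteins), the core of interferon-stimulated elements (GAAA or GAA, then any 2 bases, then GAAA) and an NF-kB element (GGG, any 2 bases, TT, any 1 base, CC). The stretches lie at chr6:31357220-31357359 (HLA-B, minus strand), chr6:31272133-31272272 (HLA-C, minus strand), chr15:44711337-44711476 (B2M, plus strand) and chr6:32853745-32853884 (TAP1, minus strand).
HLA-B: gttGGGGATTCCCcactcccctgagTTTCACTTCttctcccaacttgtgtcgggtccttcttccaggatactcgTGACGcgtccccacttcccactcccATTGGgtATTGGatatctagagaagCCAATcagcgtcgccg
HLA-C: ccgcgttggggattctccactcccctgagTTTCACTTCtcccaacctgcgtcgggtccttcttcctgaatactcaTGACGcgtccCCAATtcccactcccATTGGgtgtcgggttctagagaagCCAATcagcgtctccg
B2M: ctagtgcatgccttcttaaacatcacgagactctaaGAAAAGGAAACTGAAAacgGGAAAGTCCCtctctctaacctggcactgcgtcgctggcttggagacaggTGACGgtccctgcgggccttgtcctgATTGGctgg
TAP1: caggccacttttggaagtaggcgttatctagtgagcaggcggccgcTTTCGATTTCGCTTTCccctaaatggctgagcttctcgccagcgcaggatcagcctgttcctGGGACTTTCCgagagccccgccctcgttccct

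Among the 250 bases before the start, HLA-B, HLA-C and B2M each held a CRE half-site followed, nearer the start, by a CCAAT box, and each held an interferon element core further upstream. The interferon element core was also matched before the starts of TAP1 (first of 2 entries), TAP2, TAPBP and ERAP1 (the other of its 2 entries). The CRE half-site was matched before TAP2 but not before TAP1, TAPBP or ERAP1. Of 35116 such windows in the table, 32.0% matched CCAAT, 21.2% TGACG, 9.08% the interferon element core and 5.07% the NF-kB element. A match describes letters only, and the windows say nothing on which factors were bound in these cells.

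The T-cell label was checked against marker genes. Of the 12 T-lineage markers, 11 were matched, and CD3E stood at 9647 to 11120 normalized counts in MB1-47 libraries and 10858 to 11965 in DMSO libraries. RAG1, a recombinase of immature lymphocytes, stood at 27993 to 30868 with MB1-47 and 38426 to 39980 with DMSO. The 11 T-lineage markers summed to 53576 to 60709 with MB1-47 and 84661 to 87054 with DMSO. Of these, 1 was called higher (DNTT) and 4 were called lower (CD3D, CD3G, CD7 and RAG1). These shares were 9.09% and 36.4%, against 18.3% and 19.8% of all tested genes. CD5 and CD2, by contrast, did not exceed 25.9 and 75.1 in any library. Among B-cell markers CD79A was high, at 6378 to 7102 with MB1-47 and 15937 to 17081 with DMSO, while PAX5 stayed at or below 23.1. The 3 matched myeloid markers summed to 58.1 to 71.9 with MB1-47 and 37.3 to 87.7 with DMSO, and CD14 was at 0 in every MB1-47 library. The 5 matched NK-cell markers summed to 220 to 307 with MB1-47 and 196 to 320 with DMSO. The 3 matched stromal markers summed to 986 to 1204 with MB1-47 and 1441 to 1838 with DMSO, nearly all of it PDGFRB. The part of these markers in the results was not tested.

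The class I genes stood at very unequal levels, with the light chain far above the heavy chains. Per kilobase of the longest protein-coding transcript in GENCODE 29, B2M averaged 16108 normalized counts with MB1-47 and 13513 with DMSO. HLA-E averaged 953 and HLA-B 86.4 normalized counts per kilobase with MB1-47, against 458 for HLA-E and 84.7 for HLA-B with DMSO. B2M therefore stood 186-fold above HLA-B with MB1-47 and 160-fold above it with DMSO on this scale, and 16.9-fold and 29.5-fold above HLA-E in the same order of groups. ERAP1 was the most abundant of the other genes per kilobase, at 1740 with MB1-47 and 1524 with DMSO, above TAP1 at 318 and 265, TAPBP at 186 and 305, TAP2 at 142 and 157 and NLRC5 at 77.1 and 111. TAPBP thus stood below TAP1 with MB1-47 and above it with DMSO, and no test was made of the order of these genes.

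The low values of HLA-B and HLA-C carry a limit of their own. These genes are among the most polymorphic in the human genome, and the deposited values come from a comparison of reads with reference transcripts. How many reads of the alleles of this line matched those transcripts was not tested. Of the distinct 31-base words in the GENCODE 29 transcripts of HLA-B, 12.2% also occurred in other genes, 8.86% in HLA-C. For HLA-C the share was 15.9% and for HLA-E 10.3%, against 1.55% for B2M, 0.648% for ERAP1 and 0.288% for NLRC5. TAP2 shared 31.7% of its words with 1 overlapping gene model, AL669918.1, so the level of TAP2 is also uncertain. TAP1 and TAPBP shared 4.66% and 9.39%.

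HLA-E rose with MB1-47, and none of the other 7 tested members passed the threshold, an adjusted p under 0.05 from limma's moderated test over all 13465 genes. At an unadjusted p under 0.05, B2M and TAPBP also passed, but the share of all genes passing at that level was not computed. At the adjusted threshold 38.1% of all tested genes passed, 18.3% higher and 19.8% lower. The members' count of 1 higher and 0 lower at that threshold was below the background. The median change of the 8 tested members was 0.22 on the log2 scale, against 0.02 over all genes tested. All values are from bulk RNA, in which fewer cells of a type and less RNA per cell cannot be told apart.

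**Figure D1:**
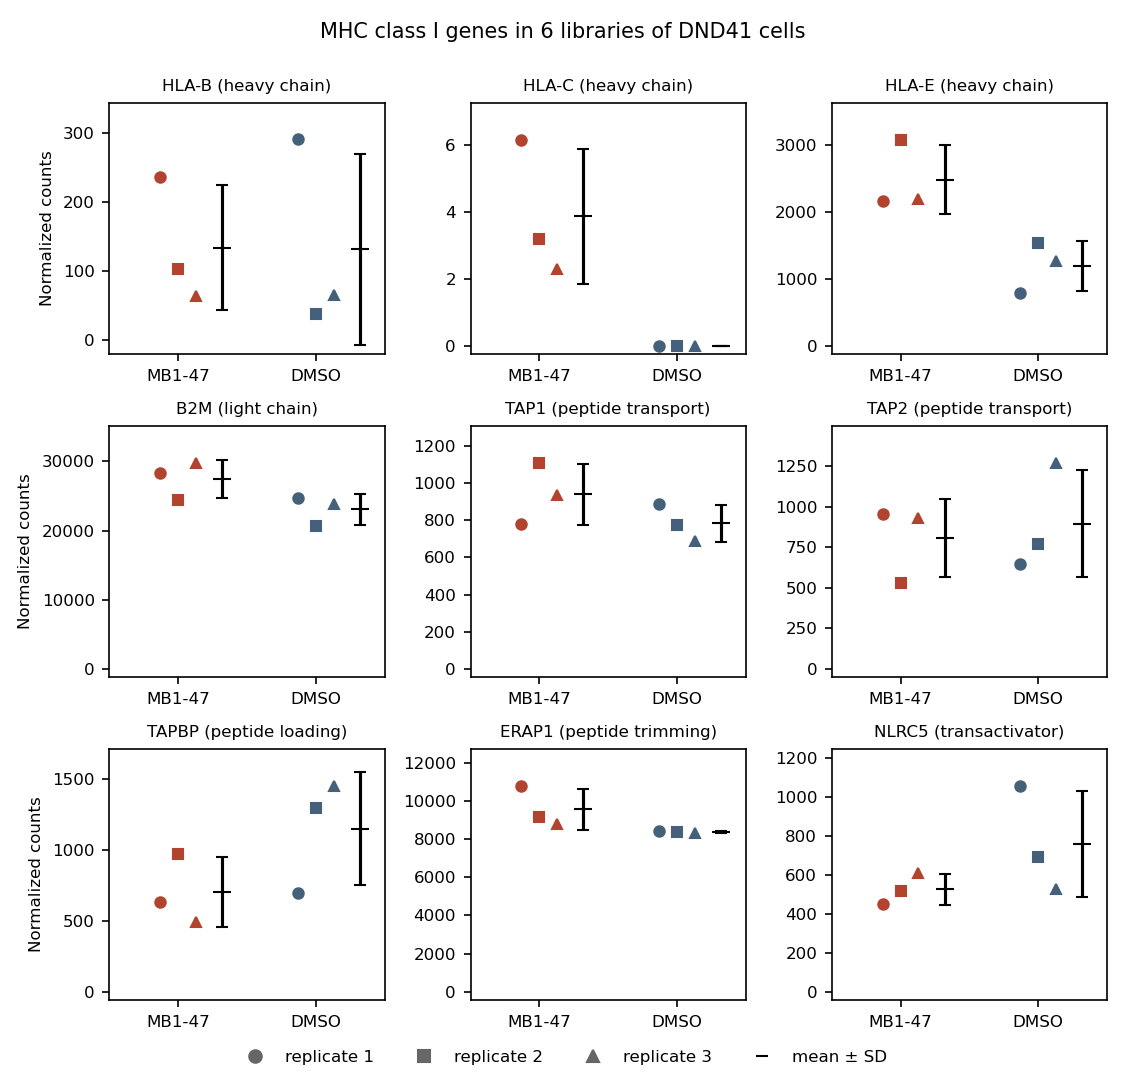
Normalized counts of the 9 genes in each library (y axes start at or just under 0 and differ between panels), with MB1-47 in red, DMSO in blue, symbols for replicate numbers and bars for mean ± SD of 3 libraries. HLA-E stood at 2166 to 3071 in the MB1-47 libraries and 781 to 1531 in the DMSO libraries, without overlap, while HLA-B, B2M, TAP1, TAP2, TAPBP and NLRC5 overlapped.

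HLA-E encodes the heavy chain that presents peptides from the leader sequences of other class I chains to the CD94-NKG2 receptors of natural killer cells. It had 2166, 3071 and 2199 normalized counts in the MB1-47 libraries, against 781, 1531 and 1260 in the DMSO libraries. Every MB1-47 library lay above every DMSO library, and DMSO replicate 1 was the lowest of the 6. The change was 1.09 ± 0.22 (log2 fold change ± SE), or 2.13-fold, with an adjusted p of 0.00267. Over 15 alternative settings it ranged from 0.82 to 1.30, and the adjusted p ranged from 0.000392 to 0.0408.

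HLA-B, a classical heavy chain that presents peptides to CD8 T cells, had 235, 102 and 63.1 normalized counts in the MB1-47 libraries, against 291, 37.1 and 65.1 in the DMSO libraries. Replicate 1 was the highest library in both groups, and the DMSO libraries alone spanned 7.83-fold. The change of 0.36 ± 0.69 was smaller than its SE (adjusted p = 0.716). Its direction rested on single libraries: it was -0.15 without MB1-47 replicate 1, -0.26 without DMSO replicate 2 and 1.21 without DMSO replicate 1, with adjusted p-values of 0.90, 0.796 and 0.106. HLA-C, the other classical chain of the rule, was listed at 6.14, 3.19 and 2.29 in the MB1-47 libraries and at 0 in all 3 DMSO libraries. These values are at the low end of the table, and with the depth of the libraries unknown no fold is given.

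B2M, the light chain shared by all class I molecules, had 28253, 24393 and 29745 normalized counts in the MB1-47 libraries, against 24751, 20581 and 23785 in the DMSO libraries. The groups overlapped by a small margin, since MB1-47 replicate 2 lay below DMSO replicate 1. Replicate 2 was the lowest library in each group. The change was 0.25 ± 0.10, or 1.19-fold, with an adjusted p of 0.0625. The threshold was passed in 6 of 15 alternatives, over which the adjusted p ranged from 0.000317 to 0.215. With the replicate number as a block the adjusted p was 0.0104, without MB1-47 replicate 2 it was 0.0164 and without DMSO replicate 1 it was 0.0480. With trimmed-mean factors B2M changed by 0.27 (adjusted p = 0.0363), with quantile normalization by 0.49 (adjusted p = 0.000317) and with equal library totals by 0.38 (adjusted p = 0.00283), where the median of all genes stood at 0.15.

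The gap between HLA-E and B2M can be read within each library. On the log2(value + 1) scale, without correction for length, HLA-E minus B2M was -3.70, -2.99 and -3.76 in the MB1-47 libraries, against -4.98, -3.75 and -4.24 in the DMSO libraries. The MB1-47 library with the widest gap, replicate 3, was close to the DMSO library with the narrowest, replicate 2, and the 2 groups overlapped by that margin. The mean of this difference, which was not in the plan, was 0.84 higher with MB1-47.

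**Figure D2:**
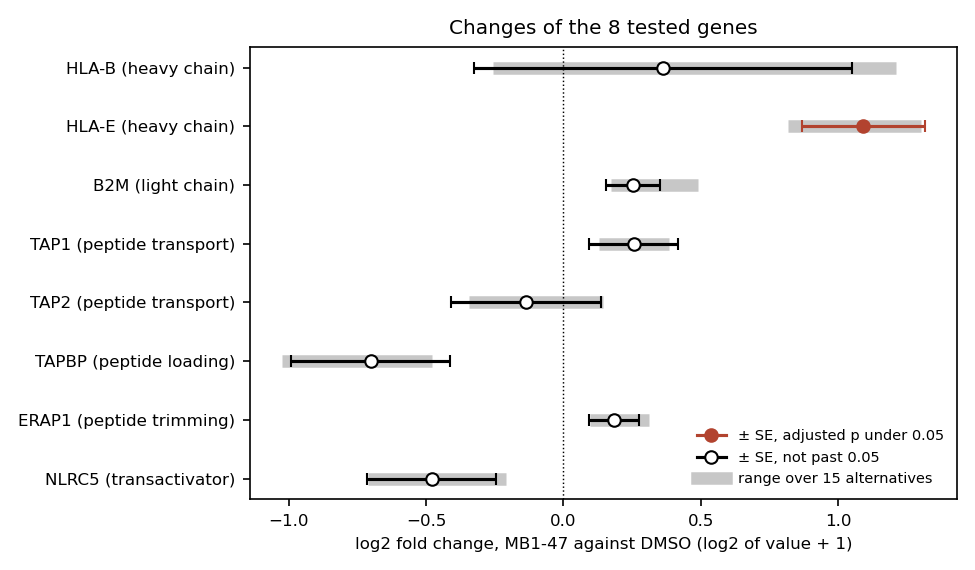
Log2 fold change of MB1-47 against DMSO for each of the 8 tested genes on log2(value + 1), with the SE as bars and the range over 15 alternative settings in grey. HLA-E, in red, passed an adjusted p of 0.05 with 1.09 ± 0.22, and the grey ranges of HLA-B (-0.26 to 1.21) and TAP2 (-0.34 to 0.15) crossed 0.

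Neither transporter gene passed the threshold. TAP1 had 778, 1109 and 937 normalized counts in the MB1-47 libraries, against 890, 775 and 688 in the DMSO libraries. The highest library was MB1-47 replicate 2 and the lowest DMSO replicate 3, and MB1-47 replicate 1 lay inside the DMSO range. Its change was 0.26 ± 0.16 (adjusted p = 0.243). TAP2, the other subunit, had 957, 529 and 931 normalized counts with MB1-47, against 643, 769 and 1268 with DMSO. The lowest library was thus an MB1-47 one, replicate 2, and the highest was DMSO replicate 3. TAP2 changed by -0.14 ± 0.27 (adjusted p = 0.731), by 0.14 without MB1-47 replicate 2 and by 0.15 without DMSO replicate 3. The subunits differed in which libraries were high, and their correlation over the 6 libraries was -0.82 on the log2 scale. The correlations between members given in this text were the largest in size among all pairs of tested members. They are descriptions, since the libraries share scaling and group, and no p is given.

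TAPBP had the lowest change among the members. It had 636, 973 and 493 normalized counts in the MB1-47 libraries, against 699, 1298 and 1448 in the DMSO libraries. DMSO replicate 1 lay among the MB1-47 libraries, the other DMSO libraries lay above all of them, and replicate 2 was the highest with MB1-47. The change was -0.70 ± 0.29, a ratio of 0.615, with an adjusted p of 0.0799. It passed the threshold in 2 of 15 alternatives, without DMSO replicate 1 (-1.03, adjusted p = 0.00714) and without MB1-47 replicate 2 (-0.97, adjusted p = 0.0212), and the adjusted p ranged up to 0.268. Over the 6 libraries TAPBP and B2M had a correlation of -0.86 on the log2 scale, given as a description since the libraries share scaling and group.

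ERAP1, the trimming aminopeptidase, had 10774, 9131 and 8771 normalized counts in the MB1-47 libraries, against 8405, 8391 and 8330 in the DMSO libraries. All MB1-47 libraries lay above all DMSO libraries, which lay within 1.01-fold of each other. The change of 0.18 ± 0.09 did not pass (adjusted p = 0.131) except with quantile normalization (0.30, adjusted p = 0.0231) and equal library totals (0.31, adjusted p = 0.0150). With HLA-E, ERAP1 was 1 of 2 tested members whose groups did not overlap, and both were higher. Among all tested genes 49.3% did not overlap, 24.1% higher and 25.2% lower.

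NLRC5, the transactivator, had 449, 516 and 612 normalized counts in the MB1-47 libraries, against 1057, 690 and 527 in the DMSO libraries. DMSO replicate 1 was far above the rest, and DMSO replicate 3 lay within the MB1-47 range. The change was -0.48 ± 0.24, with an adjusted p of 0.135. It was -0.21 without DMSO replicate 1 (adjusted p = 0.452) and -0.71 without DMSO replicate 3 (adjusted p = 0.0365), the alternative in which it passed. HLA-E and NLRC5 had a correlation of -0.77 over the 6 libraries, given as a description since the libraries share scaling and group. DMSO replicate 1 had both the highest NLRC5 and the lowest HLA-E. Within the MB1-47 libraries, by contrast, replicate 1 was the lowest for both genes.

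**Figure D3:**
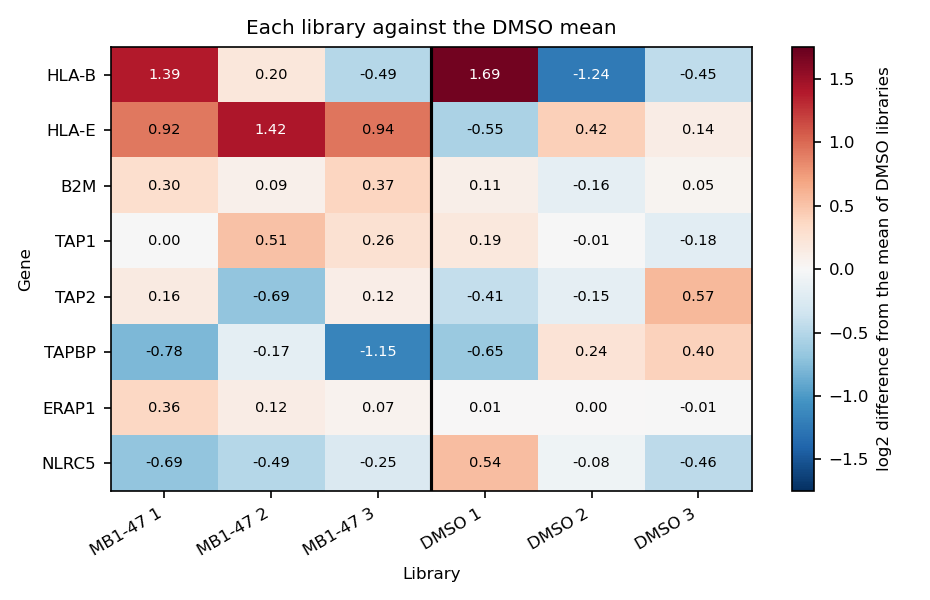
Log2 difference of each library from the mean of the DMSO libraries for the 8 tested genes, with MB1-47 libraries left of the line and DMSO libraries right of it. HLA-E was positive in all MB1-47 libraries (0.92, 1.42 and 0.94), TAPBP was negative in all of them (-0.78, -0.17 and -1.15), and HLA-B ranged from 1.69 in DMSO replicate 1 to -1.24 in DMSO replicate 2.

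The chains were also set against the transport and loading genes. The mean log2 value of HLA-B, HLA-E and B2M minus that of TAP1, TAP2, TAPBP and ERAP1 was 0.70, 0.39 and 0.21 in the MB1-47 libraries, against 0.39, -0.59 and -0.52 in the DMSO libraries. The groups overlapped through DMSO replicate 1, in which HLA-B was at its highest. The mean was 0.67 higher with MB1-47, made up of 0.57 for the chains and -0.10 for the other 4 genes. HLA-C, which the planned index included, was left out because it lay below the minimum, and with it the difference was 1.08, resting on its DMSO values of 0. With HLA-B left out, an alternative added after its values were seen, the index was 2.38, 2.52 and 2.54 in the MB1-47 libraries, against 1.70, 1.81 and 1.60 in the DMSO libraries. The groups then did not overlap, with a difference of 0.77. With B2M as the only chain, also added afterwards, the index was 4.23, 4.01 and 4.41 in the MB1-47 libraries, against 4.19, 3.69 and 3.72 in the DMSO libraries, which overlapped, with a difference of 0.35. No p is given for these indices, because the members were chosen with results known, and HLA-E had the largest change of the 3 chains.

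The immunoproteasome, with its PA28 activators, cuts proteins into peptides for the transporter. Of the 6 genes, 5 fell, none rose and PSMB9 did not pass, where 19.8% of all tested genes fell and 18.3% rose. The median change was -0.93, against 0.02 over all genes tested, and without a trend 3 of the 6 fell. PSME2, a PA28 subunit, fell to 1096, 1335 and 1047 normalized counts in the MB1-47 libraries, against 2912, 2606 and 3185 in the DMSO libraries (-1.33 ± 0.13, adjusted p = 1.47e-05). Its partner PSME1 changed by -0.79 ± 0.11 and PSME3, the subunit of the nuclear activator, by -1.07 ± 0.08. The catalytic subunit genes PSMB8 and PSMB10 changed by -1.05 ± 0.32 and -0.80 ± 0.19. PSMB8 had 249, 129 and 106 normalized counts with MB1-47, against 245, 331 and 378 with DMSO, so MB1-47 replicate 1 lay just above the lowest DMSO library. Its adjusted p of 0.0239 ranged up to 0.0949 over the alternatives and missed the threshold without MB1-47 replicate 2 or 3, without DMSO replicate 2 or 3, and without a trend in limma, where PSMB10 missed it too. PSMB9, which overlaps TAP1 on the other strand, changed by -0.37 ± 0.18 (adjusted p = 0.123). Within each library PSMB9 minus TAP1 was -1.15, -1.38 and -0.89 on the log2 scale with MB1-47, against -0.68, -0.62 and -0.23 with DMSO, without overlap. This difference was not in the plan, and no background share was computed for such differences. Neither gene passed the threshold alone.

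**Figure D4:**
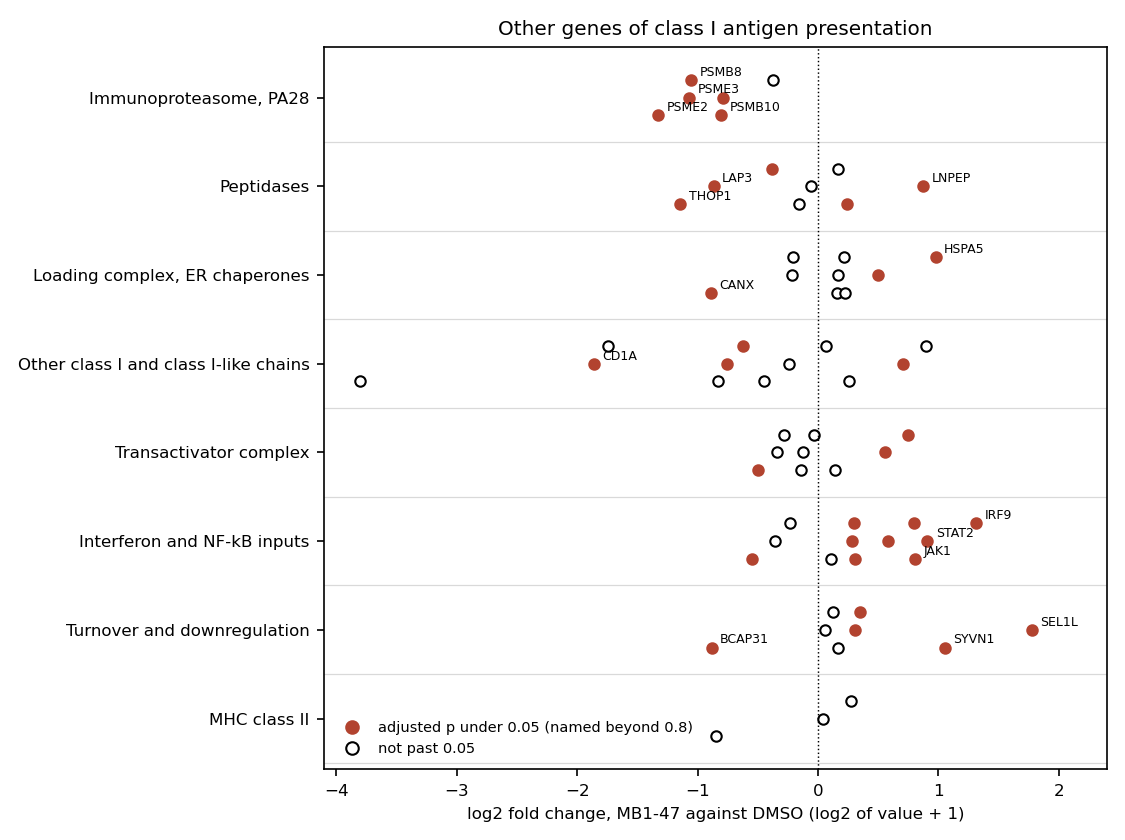
Log2 fold change of MB1-47 against DMSO for the tested genes of 8 lists around class I presentation (1 point per gene, spread vertically for legibility), in red where the adjusted p was under 0.05. In the immunoproteasome and PA28 list 5 of 6 genes were lower, and in the list of interferon and NF-kB inputs 8 of 12 were higher and 1 was lower.

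Among 8 peptidases outside the proteasome, 2 rose and 3 fell (25.0% and 37.5%, against 18.3% and 19.8% of all tested genes), with a median of -0.11. LNPEP, an aminopeptidase of endosomes, changed by 0.87 ± 0.08, with 17913, 16447 and 17557 normalized counts in the MB1-47 libraries against 9637, 10013 and 8727 in the DMSO libraries. THOP1 and LAP3, which degrade peptides in the cytosol, changed by -1.14 ± 0.17 and -0.87 ± 0.17. Of the 9 chaperones of the loading complex and the endoplasmic reticulum, 2 rose and 1 fell (22.2% and 11.1%, against 18.3% and 19.8% of all tested genes), with a median of 0.16. This share of rises was near the background. HSPA5, the reticulum's HSP70 chaperone, changed by 0.98 ± 0.08 and P4HB, a disulfide isomerase, by 0.50 ± 0.07. CANX, the lectin that holds new heavy chains, had 301, 695 and 634 normalized counts with MB1-47, against 1011, 650 and 1281 with DMSO, and the groups overlapped. Its change of -0.89 ± 0.32 (adjusted p = 0.0468) missed the threshold in 7 of 15 alternatives, among them those without MB1-47 replicate 1 and without DMSO replicate 1 or 3, where the adjusted p reached 0.180. The other partners of tapasin in the loading complex did not pass: CALR changed by 0.16 ± 0.09 and PDIA3 by 0.22 ± 0.09. PDIA3 was called higher with the replicate block (adjusted p = 0.0279), with trimmed-mean factors, quantile normalization and equal library totals, and without DMSO replicate 1, and CALR with quantile normalization and equal library totals. TAPBPL, a relative of tapasin, changed by -0.21 ± 0.16.

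Of the 12 tested interferon and NF-kB inputs, 8 rose and 1 fell (66.7% and 8.33%, against 18.3% and 19.8% of all tested genes), with a median of 0.30. IRF9, which joins STAT2 in the ISGF3 factor, had 558.5, 504 and 564.5 normalized counts in the MB1-47 libraries, against 190, 236 and 227 in the DMSO libraries (1.32 ± 0.18). STAT2 changed by 0.91 ± 0.12 and JAK1 by 0.81 ± 0.09. IRF1, which binds interferon elements of class I promoters, was the gene that fell, with 7768, 6366 and 7348 normalized counts with MB1-47 against 10734, 10087 and 10403 with DMSO (-0.54 ± 0.09). The count of 8 was 5 without a trend and 5 without MB1-47 replicate 1.

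Of the 9 genes listed for CIITA and the factors that act with NLRC5, 2 rose and 1 fell (22.2% and 11.1%, against 18.3% and 19.8% of all tested genes), with a median of -0.13. This share of rises was near the background. CREB1, which binds the CRE half-site, had 4515, 3685 and 4950 normalized counts in the MB1-47 libraries, against 2324, 3002 and 2481 in the DMSO libraries (0.75 ± 0.13). Its relative ATF1 changed by 0.55 ± 0.15, a call lost without MB1-47 replicate 3, without DMSO replicate 2 and without a trend. NFYA, the DNA-binding subunit of NF-Y, changed by -0.49 ± 0.09. RFX5 changed by -0.03 ± 0.11 and by 0.09 under equal library totals. CIITA, the class II transactivator and a relative of NLRC5, had 60.7, 59.3 and 94.4 normalized counts with MB1-47, against 89.3, 146 and 33.9 with DMSO (-0.13 ± 0.51).

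Of 12 tested genes of class I and class I-like chains, 1 rose and 3 fell (8.33% and 25.0%, against 18.3% and 19.8% of all tested genes), with a median of -0.54. CD1A, a lipid-presenting chain of cortical thymocytes that also pairs with beta-2 microglobulin, had 396, 372 and 345 normalized counts in the MB1-47 libraries, against 1369, 1269 and 1416 in the DMSO libraries (-1.86 ± 0.13). CD1B, which was added after its values were seen as the most abundant of that family, changed by -0.63 ± 0.07. HLA-L, a pseudogene, changed by -0.75 ± 0.24, and its adjusted p of 0.0312 missed the threshold in 8 of 15 alternatives, with values up to 0.0978. FCGRT, the heavy chain of the neonatal Fc receptor, rose, with 1102, 1074 and 1365 normalized counts with MB1-47 against 723, 616 and 839 with DMSO (0.70 ± 0.15). The class I chains that pair with beta-2 microglobulin thus did not share a direction, with HLA-E and FCGRT higher and CD1A and CD1B lower while B2M did not pass. The 6 matched class II genes summed to 41.8 to 93.4 with MB1-47 and 58.2 to 83.9 with DMSO, and none of the 3 tested passed.

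Of 8 tested genes linked to turnover or lowering of class I molecules, 4 rose and 1 fell (50% and 12.5%, against 18.3% and 19.8% of all tested genes), with a median of 0.24. SEL1L and SYVN1, which form a ubiquitin ligase complex that removes misfolded proteins from the endoplasmic reticulum, changed by 1.78 ± 0.08 and 1.06 ± 0.09. BCAP31, which carries proteins including class I molecules out of the reticulum, had 1323, 1417 and 1452 normalized counts with MB1-47, against 2561, 2392 and 2781 with DMSO (-0.88 ± 0.10). Over all 7 lists without class II, 19 of 64 tested genes rose and 15 fell, or 29.7% and 23.4%, against 18.3% and 19.8% of all genes, and their median was 0.01.

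The genes whose pattern over the 6 libraries was most like that of B2M, among 10239 with a mean of at least 100, were PICALM, SLC25A38 and ATRAID, with correlations of 0.999, 0.995 and 0.993 on the log2 scale. PICALM had 4982, 3950 and 5384 normalized counts with MB1-47, against 3981, 3046 and 3788 with DMSO. Like B2M, these genes were lowest in replicate 2 of each group. The genes most like TAP1 were ITM2B, PCGF1 and NIPSNAP1, with correlations of 0.994, 0.989 and 0.989. With so many genes and 6 libraries, close matches are common, and no p is given.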

How the data were processed

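RNA of 6 DND41 libraries was measured by strand-specific RNA-seq. The authors deposited 1 table of normalized counts per gene symbol and library, handled as a signal of 0 or more. The submitters' processing notes name kallisto 0.44.0, DESeq and GRCh38.p13, without the annotation or how transcripts were summed. Reads could not be recovered (59.0% to 64.4% of low values fell within 0.1 of whole steps), so depth is unknown. Scaled totals were 28323706 to 32667526. Libraries had 0 nonzero values in common, and library correlations were 0.955 to 0.968 within groups and 0.927 to 0.948 between them.

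Genes with a mean of at least 10 were tested on log2(value + 1), and the added 1 can shrink fold changes of low genes. Changes are differences of mean log2 values and can differ from the ratio of group means. HLA-B, for example, averaged 134 with MB1-47 and 131 with DMSO, with a log2 change of 0.36. limma 3.58.1 in R 4.3.3, with an intensity trend and no block, fitted MB1-47 against DMSO, and p-values were adjusted by Benjamini-Hochberg over all 13465 genes at a threshold of 0.05. In the chains index, HLA-C was planned but left out, being below the minimum. The fit was run on simulated counts in which 200 genes were changed by known folds. Recovery was required only at folds larger than that of any tested member. Smaller folds were simulated too, but their recovery is not reported here, so nothing is concluded on changes of the members' size. The members and lists were chosen with earlier results of these data known. The lists' named genes were up to 3 called genes per list (mean of 50 or more, ranked by size of change), all 6 genes of the immunoproteasome list, and CALR, CANX, PDIA3, TAPBPL, IRF1, CIITA and RFX5; CD1B was added after its values were seen. Single genes of the lists that the rule names but the text does not are not reported here. For B2M and TAP1, the 3 genes with the highest Pearson r were named. MARCHF9 was matched by a synonym, and 2 further HLA genes of the table were counted with the class I chains and lay below the minimum. Positions and transcripts are from GENCODE 29, promoters from RefSeq. Alternatives were pseudocounts of 0.5 and 5, no filter or a filter at 50, trimmed-mean factors, quantile normalization, equal library totals, no trend, the replicate block and each library left out. Figures used matplotlib 3.10.9.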

Additional observations from a re-analysis of the deposited data

How the results depend on the processing

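The number of genes called among all tested was 5125 and ranged from 4172 to 5398 over the 15 alternatives. HLA-E was called higher in all of them. The number of members called higher was 1, and it was 2 with trimmed-mean factors, 3 with quantile normalization, 3 with equal library totals and 2 with the replicate block, through B2M and, in the cases with 3, ERAP1; leaving out 1 library gave 1 to 2. The number called lower was 0, and leaving out 1 library gave 0 to 1, TAPBP without MB1-47 replicate 2 or DMSO replicate 1 and NLRC5 without DMSO replicate 3. With equal totals 3335 genes were called higher and 2063 lower, in place of 2458 and 2667.

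Whether the replicate numbers pair libraries across the groups is unknown. Deviations of same-numbered libraries correlated at 0.113, 0.082 and 0.078, which is weak, but each library correlated best with its own number. With the replicate block, 5246 genes were called, 2 members were higher and 4 chaperones of the loading list were higher in place of 2.

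With 1 library left out, HLA-B ranged from -0.26 to 1.21, TAP2 from -0.34 to 0.15, CIITA from -0.70 to 0.34 and RFX5 from -0.084 to 0.061. HLA-B reversed to -0.15 without MB1-47 replicate 1 and -0.26 without DMSO replicate 2, and TAP2 to 0.14 without MB1-47 replicate 2 and 0.15 without DMSO replicate 3. CIITA reversed to 0.00046 with equal totals and 0.34 without DMSO replicate 2. RFX5 reversed to 0.0035 with quantile normalization, 0.094 with equal totals, 0.047 without MB1-47 replicate 3 and 0.061 without DMSO replicate 2. None of these was called, and the cause was not tested.

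The index of chains minus transport and loading was 0.67 higher with MB1-47 than with DMSO. With 1 library left out this difference was 0.49 to 0.99. The value was 1.08 with HLA-C, which the plan included and which was left out once its values were seen, and 0.77 without HLA-B, an alternative chosen after the data were seen. Of 465 alternative values of 31 named list genes, 28 lost a call and 7 gained one. Chaperone rises numbered 5 with quantile normalization or equal totals, in place of 2, and falls 0 in place of 1. Without a trend, immunoproteasome falls numbered 3 in place of 5 and interferon rises 5 in place of 8. Peptidase rises numbered 1 in place of 2 without a trend and without any library except MB1-47 replicate 2, and turnover rises 2 in place of 4 without MB1-47 replicate 1 or 3 or DMSO replicate 1. The depth behind the low values of HLA-B and HLA-C is unknown.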
